A study of Drosophila melanogaster with 28 samples.

Results

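The genes nanos, zpg, bam, bgcn, pum, ovo and stwl, which keep germline stem cells undifferentiated or drive their daughters to differentiate, were described by 3 histone marks in testis tumours of Drosophila melanogaster. They were chosen by name for that role and not by a threshold on these measurements, although earlier results of the data were known, and they are 7 of 13968 protein-coding genes, with 13 of the 18955 annotated start sites of such genes. Tumours of 2 kinds were compared, each from pooled dissected testis pairs in which Unpaired (Upd), the ligand of JAK-STAT signalling, was overproduced from a UAS transgene. Germline tumours carried P{w[+mC]=GAL4::VP16-nanos.UTR} as the driver, opposite UAS-Upd, in flies that were y[1] w[1118] and also had P{hs70FLP}. Cyst tumours carried traffic Jam-GAL4 opposite UAS-Upd in w[1118] flies without the hs70FLP element. Both kinds shared 1 copy of UAS-FRT-H3-GFP-FRT-H3-mKO, a histone H3 transgene with a GFP tag that the same driver switches on, so the tagged cells are those in which the driver is active. The same temperature was recorded for every library of both tumour types. No age was given in the labels, which call the germline libraries GSC-like chromatin (germline stem cell) and the cyst libraries CySC-like chromatin (cyst stem cell).

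An antibody against GFP with protein A-micrococcal nuclease released chromatin of the tagged cells (chromatin immunocleavage). Of this chromatin a small portion was sequenced as input, and the remainder went into an immunoprecipitation (IP) for H3K4me3, H3K27me3 or H3K9me3. H3K4me3 and H3K9me3 had 2 input and 2 IP libraries per tumour type, and H3K27me3 had 3. The 28 libraries held between 942943 and 18199704 fragments, with a median of 4831397 in the IP and 7018523 in the input. Over the windows of 500 bp on each side of the 13 start sites, an H3K4me3 IP library held from 8 to 126 fragments, an H3K9me3 IP library from 16 to 186, and an H3K27me3 IP library from 0 to 331, so H3K27me3 at start sites is the least precise of the measurements. Signal is given in units in which the autosomal median of a library is 1, and log2 IP/input is log2((IP + 0.1)/(input + 0.1)) within 1 replicate number. The labels do not say that replicates came from separate crosses, so p-values measure the spread between these preparations only. The H3K4me3 libraries of the 2 tumour types were on different flow cells, and for this mark tumour type and flow cell cannot be told apart.

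H3K4me3 is a mark of active start sites, H3K27me3 of Polycomb repression and H3K9me3 of heterochromatin. In the fly gonad, Nanos and Pumilio form a complex that represses translation of differentiation genes in the stem cell. Bam and its partner Bgcn are the switch for differentiation, and in the stem cell bam is held silent by BMP signalling, whose Smad proteins Mad and Medea bind a silencer element at the bam start site. zpg encodes innexin 4, the gap junction channel through which germline and somatic cells exchange small molecules. ovo encodes zinc finger transcription factors of the germline, and stwl encodes a chromatin protein that keeps stem cells from differentiating.

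The sequences at the start sites place the features to which the profiles below refer. They are shown for the silencer element of bam, for the DNA replication-related element (DRE), the site of the factor DREF in many broadly active promoters, and for the core of the OVO binding site. Each is 30 bases long, 5′ to 3′ on the strand of the gene, from the RefSeq genome of Release 6, with the motif in capitals, and position 1 is the start site.
bam, silencer element, bases 29 to 44, chr3R:25245059-25245088: gaattcgCAGACAGCGTGGCGTCaggcatt
bam, DRE, bases -34 to -27, chr3R:25245125-25245154: actcgacatgaTATCGATAcgttaacaaca
nanos, DRE, bases -58 to -51, chr3R:19157169-19157198: tttactaaaaaTATCGATAtatttattatc
nanos, OVO core, bases -4 to 3, chr3R:19157223-19157252: tctaagcaagaACCGTTAgttggcgcgtag
nanos, OVO core, bases 234 to 240, chr3R:19157460-19157489: agagtgcgcgaTAACCGTaactttcgaccc
zpg, OVO core, bases 17 to 23, chr3L:6605998-6606027: agtatacatcaACCGTTAtgatgccgcgtg
ovo, OVO core, bases 1 to 7 of start site 3, chrX:5064222-5064251: cgttcctttttACAGTTAcatagcaatcgt

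The silencer element was searched for by its published consensus on both strands, and 50 of the 18955 start site windows held a match (0.264%). The DRE was searched as TATCGATA, which is its own reverse complement, and 10.9% of windows held it. Among the 13 windows, those of bam and nanos did. The OVO core was searched as TAACNGT on both strands, with overlapping matches counted, and 29.5% of windows held at least 1. The window of ovo start site 2 held 6 matches and that of start site 3 held 4, of which 4 are shared because these windows overlap, and 0.401% of all windows held 4 or more. GAGAG, the core of the GAGA factor site, was in 68.8% of windows. It occurred 18 times at pum start site 3, 13 times at ovo start site 1, 10 times at pum start site 4 and 9 times at pum start site 2, counts reached by 3.20% of windows for 9 or more. A match is a description of the letters and says nothing of binding in these cells.

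Over the whole windows, H3K4me3 at the stem cell genes stood close to its input in both tumour types. Only the start of zpg was called above input, in both tumours, and start site 2 of stwl was below it in both. In the germline tumours 2 of the 13 start sites passed the test (limma, Benjamini-Hochberg adjusted p under 0.05 and a fold over 1.5), 1 higher and 1 lower, where 19.2% of 18644 tested start sites were called higher and 4.23% lower. In the cyst tumours 3 of 13 passed, 1 higher and 2 lower, where 25.7% of start sites were called higher and 3.37% lower. The 13 had a median log2 IP/input of -0.10 (germline) and 0.13 (cyst), where the median of all start sites was 0.20 and 0.24. The split of calls depended on the scaling: with TMM scaling, which moved the median of all start sites by -0.21 and -0.22, 1843 start sites were higher and 1891 lower in germline in place of 3586 and 789, and 2695 were higher and 1657 lower in cyst in place of 4791 and 628. With a trend on GC content removed, the cyst split was 2453 and 931. No start site differed in H3K4me3 between germline and cyst tumours, members included (limma, 0% of 18644 higher and 0% lower, with 620 and 1139 at an unadjusted p under 0.05).

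**Figure D1:**
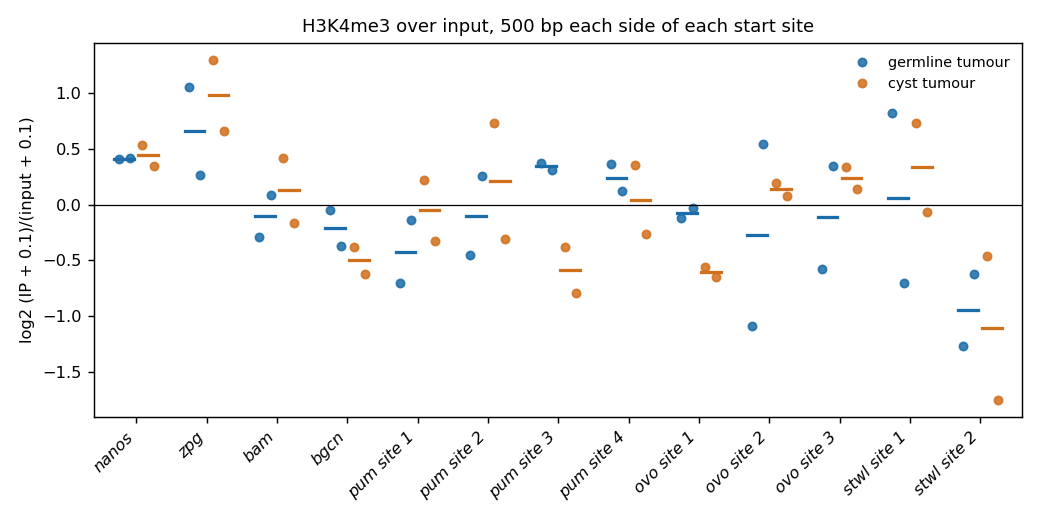
H3K4me3 IP over input (log2, vertical axis) in windows of 500 bp on each side of each of the 13 start sites, with 1 point per replicate (n = 2 per tumour type) and bars at the means. The points of zpg lie above 0 in both tumour types and those of stwl site 2 below 0, while the replicates of most other sites spread across 0.

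The tagged cells were read from H3K4me3 at the most upstream annotated start site of marker genes, and other start sites of these genes were not read. The median of all start sites was 0.20 in germline and 0.24 in cyst. Of 6 germline markers (vas, aub, AGO3, nanos, zpg and bam), 2 had H3K4me3 above input in the germline tumours. Values there ran from -1.01 to 0.66, with a median of -0.18. The 2 were nanos and zpg, whose windows also hold start sites of the genes CG11779 and Rexo5, so their signal cannot be told apart. In the cyst tumours 4 of 6 were above input, with values from -0.83 to 0.98. All 5 cyst lineage markers (tj, zfh1, eya, Stat92E and ptc) had a mean above input in both, with a median of 0.43 in germline and 0.29 in cyst, although cyst replicate 2 was below input at zfh1 (-0.24) and ptc (-0.10). By their means, both hub markers (upd1 and Fas3) were also above input. upd1 (0.63 in germline and 0.76 in cyst) is the gene of Upd, which the transgene overproduces. The part of transgene copies in its values was not tested. Fas3 was at 0.35 and 0.19. Of the muscle sheath markers, 2 of 3 in germline and 3 of 3 in cyst were above input by their means, with Mhc at 0.19 and -0.15 in the cyst replicates. The part of other cells in the values below was not tested.

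zpg lies on chr3L:6604366-6606032 on the minus strand, wholly inside Rexo5, an exonuclease gene on the plus strand that has an annotated start site 147 bp upstream of that of zpg. Its H3K4me3 IP signal was 1.30 over an input of 0.573 in germline replicate 1 and 0.923 over 0.751 in germline replicate 2, and 1.87 over 0.699 and 1.82 over 1.12 in the 2 cyst replicates. IP exceeded input in each of the 4 preparations, and the tumour types overlapped. The log2 IP/input was 0.66 (SE 0.23) in germline (limma, adjusted p = 0.0357) and 0.98 (SE 0.23) in cyst (limma, adjusted p = 0.00202), and the difference of -0.32 had a 95% interval of -0.98 to 0.34. The germline call rested on replicate 1: without it the value was 0.27 (limma, adjusted p = 0.671), with TMM scaling it was 0.45 (adjusted p = 0.136) and with the GC trend removed 0.20 (adjusted p = 0.609). The cyst value was 0.66 without cyst replicate 1 (limma, adjusted p = 0.173) and 0.53 with the GC trend removed (limma, adjusted p = 0.0668).

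At zpg the upstream side, towards the start site of Rexo5, had the higher H3K4me3. In the 400 bp upstream of the start, H3K4me3 IP/input averaged 0.89 in germline and 1.18 in cyst on the log2 scale, against -0.22 and 0.78 in the 400 bp downstream. The upstream side was the higher one in each of the 4 replicates, but in cyst both sides were above input, and in cyst replicate 1 they were nearly equal, at 1.48 and 1.43. The opposite order is the common one: downstream exceeded upstream in every replicate in germline at 56.4% of 18628 start sites, in cyst at 59.1%. Between 800 and 600 bp upstream of zpg the germline IP signal was 1.32 over an input of 0.233, and the highest cyst bin, 400 to 200 bp upstream, reached 3.06 over 0.896. Reads carry no strand here, so the signal of zpg and Rexo5 cannot be told apart.

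The differentiation gene bam (chr3R:25243039-25245109, minus strand) showed the reverse arrangement, with H3K4me3 low upstream and high downstream. Over the whole window its IP signal was 0.852 and 1.19 in germline over inputs of 1.06 and 1.12, and 1.42 and 1.14 in cyst over 1.04 and 1.29. These are values of -0.29, 0.08, 0.42 and -0.16 on the log2 scale, on both sides of 0 in each tumour type. The sides of the start site differed: upstream the germline replicates were at -1.27 and -0.74 and the cyst mean was -1.41, and downstream the means were 0.77 and 1.12. Downstream was above 0 and upstream below 0 in each of the 4 replicates, with downstream values from 0.48 to 1.06 in germline and from 0.59 to 1.64 in cyst. The bin from the start to 200 bp, which holds the silencer element printed above, had an IP signal of 1.89 over 0.944 in germline and 3.13 over 1.37 in cyst. Farther out the upstream side was not low in germline. Its highest IP bin lay 1000 to 800 bp upstream, at 2.28 over 1.73, with replicates at -0.43 and 1.06 on the log2 scale. The split into sides was chosen after the values were seen and is given without a test.

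bgcn, which encodes the helicase-like partner of Bam, lies on chromosome arm 2R at 23853270 to 23858921 on the minus strand. Its H3K4me3 also rose across the start site, from -1.70 in the 400 bp upstream to 0.81 downstream in germline. In cyst it rose from -1.43 to 0.38, and the rise was seen in each of the 4 replicates. The highest cyst IP bin lay farther upstream, from 800 to 600 bp, at 2.24 over an input of 1.02. The input ran the other way, at 2.15 in the last 200 bp upstream and 0.312 from 400 to 600 bp downstream in germline, where the IP signal was 0.467 and 1.60. Over the whole window the germline replicates were at -0.05 and -0.37, the cyst replicates at -0.38 and -0.62, all below 0. The cyst value of -0.50 (SE 0.20) did not pass the test (limma, adjusted p = 0.0563), but it did with TMM scaling (-0.72, adjusted p = 0.00587) and with the GC trend removed (-0.60, adjusted p = 0.0244).

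Over the body of bgcn H3K4me3 was above input in all 4 preparations, with log2 values of 0.68 and 0.46 in germline and 0.68 and 0.56 in cyst. Pym, a protein-coding gene on the same strand, overlaps 983 bp of this body, and its part in the values was not tested. The cyst body was the only member body called among 13658 bodies (log2 0.62, SE 0.14, limma adjusted p = 0.0107), where 25.3% were called higher and 0.681% lower. In germline 0 of 7 bodies were called, bgcn included (0.57, adjusted p = 0.0177, fold under 1.5), where 20.3% were higher and 1.34% lower. The body of bgcn had 51.8% GC, the highest of the 7, and with the GC trend removed its cyst value turned to -0.07 (limma, adjusted p = 0.647). That correction left 0 bodies higher and 0 lower in germline in place of 2778 and 183, and 357 higher and 146 lower in cyst in place of 3457 and 93; TMM scaling gave 1075 and 624, and 1342 and 768. No body differed between tumour types in H3K4me3 (limma, 0% of 13658 higher and 0% lower, with edgeR 64 higher and 133 lower, none of them a member).

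**Figure D2:**
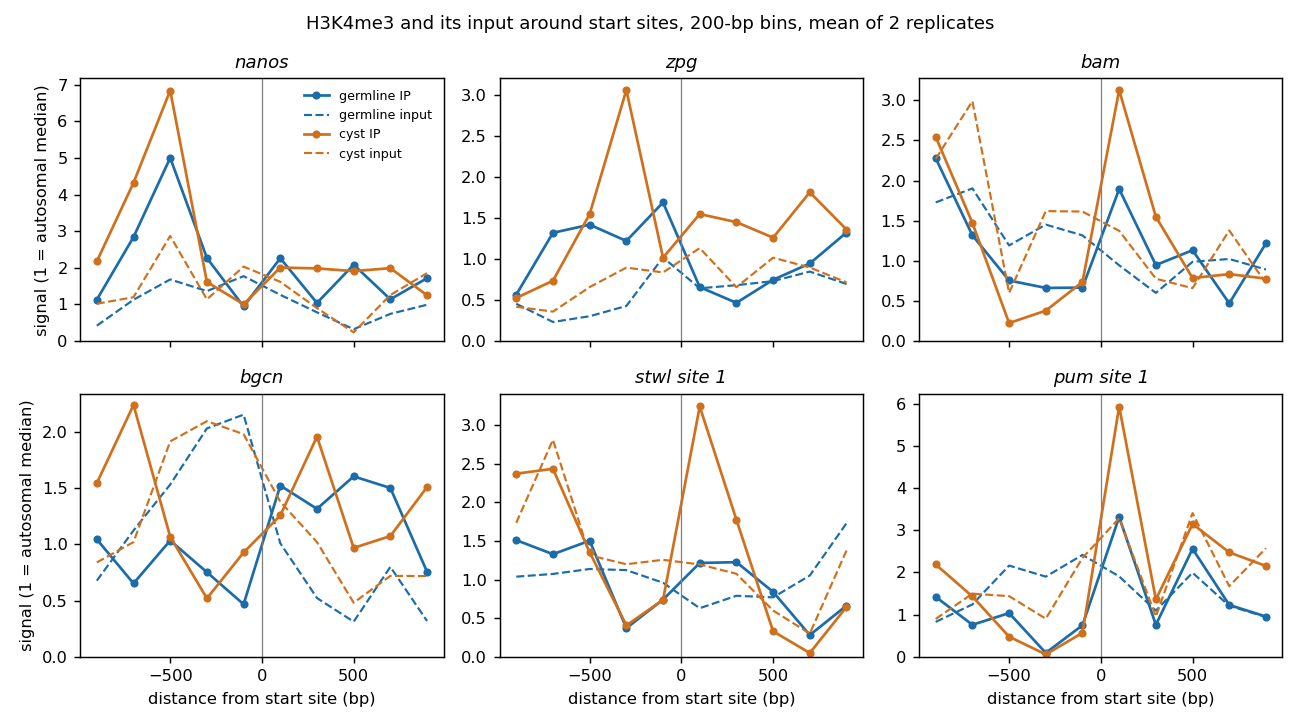
H3K4me3 IP signal (solid lines) and input signal (dashed lines) in 200-bp bins from 1000 bp upstream to 1000 bp downstream of 6 start sites, as means of 2 replicates; 1 is the autosomal median. At bam, stwl site 1 and pum site 1 the IP peaks in the bin just downstream of the start in cyst. At nanos, zpg and bgcn the highest cyst bin lies upstream.

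nanos (chr3R:19157238-19160202, plus strand), the translational repressor of stem cell identity, had H3K4me3 values that overlapped between the 2 tumour types. Its log2 IP/input was 0.41 and 0.41 in the germline replicates and 0.54 and 0.35 in the cyst replicates. The estimates of 0.41 in germline (SE 0.20, limma adjusted p = 0.129) and 0.44 in cyst (SE 0.20, adjusted p = 0.0922) did not pass the test, and their difference of -0.03 had a 95% interval of -0.61 to 0.55. The highest bin was 600 to 400 bp upstream, with an IP signal of 5.00 over an input of 1.68 in germline and 6.84 over 2.87 in cyst. That bin lies inside CG11779, a gene on the opposite strand that overlaps 2641 bp of nanos and has an annotated start site 221 bp upstream of it. Across the nanos start itself the mean rose from 0.03 upstream to 0.64 downstream in germline and from -0.22 to 0.62 in cyst, again in each of the 4 replicates. From 400 to 600 bp downstream IP/input was 2.35 in germline and 2.64 in cyst, over a low input of 0.324 and 0.239.

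pum (chr3R:9066343-9237682, minus strand) encodes Pumilio, the RNA-binding partner of Nanos, and has 4 annotated start sites, at 0, 657, 10842 and 79732 bp from its 5′ end. At start site 1 H3K4me3 was also lower upstream than downstream, at -2.26 and 0.38 in germline, with steps of 1.73 and 3.57 in the 2 replicates. In cyst replicate 1 it rose from -2.91 to 1.77, and in cyst replicate 2 from -0.38 to 0.02, so the size of the cyst step rested on replicate 1. The IP signal from the start to 200 bp was 3.32 over 1.91 in germline and 5.93 over 3.28 in cyst. Over whole windows none of the 4 sites was called in germline, except start site 1 with TMM scaling (-0.65, limma adjusted p = 0.0163). At start site 3 the IP signal was 1.48 and 1.62 over inputs of 1.12 and 1.28 in germline, and 0.899 and 1.04 over 1.20 and 1.88 in cyst. The tumour types did not overlap there, at log2 0.38 and 0.31 against -0.39 and -0.80. How many of all start sites lack overlap was not counted. The cyst value of -0.59 (SE 0.21) was called lower (limma, adjusted p = 0.0348), though not when either cyst replicate was left out (-0.80 without replicate 1, adjusted p = 0.0563, and -0.39 without replicate 2, adjusted p = 0.282), without the filter on fragments, with a pseudocount of 0.5 (-0.46) or with 250-bp windows (-0.55). The difference of 0.94 (SE 0.30, 95% interval 0.32 to 1.55) was above 99.5% of start sites but did not pass the adjustment (limma, adjusted p = 0.354).

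Start site 4 of pum showed H3K4me3 on different sides in the 2 tumour types. In germline the upstream 400 bp averaged 0.65 and the downstream 400 bp -0.57, with upstream values of 0.52 and 0.78 and downstream values of -1.05 and -0.09. In cyst the order was reversed, at -0.28 upstream and 0.89 downstream. Each replicate followed the order of its tumour type, but the 200-bp bins there held as few as 2 IP fragments, the comparison was chosen after the values were seen, and no test of it was made. Of the 13 start sites, 7 were higher downstream in every germline replicate (nanos, bam, bgcn, stwl site 1, pum sites 1 and 2 and ovo site 3) and 6 in every cyst replicate (nanos, bam, bgcn, stwl site 1 and pum sites 1 and 4), against the shares of 56.4% and 59.1% of all start sites. The members thus stood near the background on this measure.

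stwl (chr3L:14402930-14409939, minus strand) encodes Stonewall, a germline chromatin protein, and has 2 start sites 1093 bp apart. CG3919, a gene on the opposite strand, has a start site 687 bp upstream of start site 1. Start site 1 stepped from 0.17 upstream to 1.13 downstream in germline replicate 1 and from -3.59 to 0.18 in germline replicate 2, so the low upstream side in germline rested on replicate 2. In cyst the means were -0.99 and 1.18, with a step of 2.97 and 1.37 in the 2 replicates. Start site 2, inside the gene, was below input: its IP signal was 0.481 and 0.808 over inputs of 1.30 and 1.30 in germline, and 0.831 and 0.510 over 1.18 and 1.95 in cyst. All 4 replicates were below input, at log2 -1.27, -0.62, -0.46 and -1.75. The estimates were -0.95 (SE 0.25, limma adjusted p = 0.00842) in germline and -1.11 (SE 0.25, adjusted p = 0.00175) in cyst. The window has 28.5% GC, the lowest of the 13. With the GC trend removed the values were -0.04 (adjusted p = 0.945) and -0.56 (adjusted p = 0.0942). Without germline replicate 1 the germline value was -0.62 (adjusted p = 0.269), and without cyst replicate 2 the cyst value was -0.46 (adjusted p = 0.326).

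ovo (chrX:5048273-5070929, plus strand) is the only X-linked member, and its input signal, at a mean of 0.537 over the body in germline and 0.588 in cyst, was near that of 1 X per 2 autosomes. Its germline transcription factor isoforms come from start sites 2 and 3, 15571 and 15960 bp from the 5′ end. A noncoding RNA gene on the opposite strand, lncRNA:CR44833, starts 24 bp downstream of start site 2. Its signal cannot be told apart from that of start sites 2 and 3. At start site 2 the germline H3K4me3 replicates disagreed, at -1.09 and 0.54 with 8 and 28 IP fragments, and the cyst replicates were 0.20 and 0.07. Neither passed the test. At start site 1 the replicates did not overlap, with germline at -0.12 and -0.03 and cyst at -0.56 and -0.65. The difference of 0.53 was not called, as at every other start site, and the share of all start sites without overlap was not counted. The cyst value of -0.60 (SE 0.26) did not pass (limma, adjusted p = 0.0787) except with TMM scaling (-0.78, adjusted p = 0.0264). Along the gene in 1000-bp bins, the highest H3K4me3 was between 18000 and 19000 bp in both tumours, at 1.30 (replicates 1.15 and 1.45) in germline and 1.44 (0.80 and 2.09) in cyst, in a bin with 58.8% GC where the median bin has 37.7%.

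Of the 3 marks, H3K9me3 alone had a member start site called as different between tumour types. In germline 4 of 13 start sites were called, 3 lower and 1 higher, where 6.18% of 18669 start sites were lower and 0.204% higher. In cyst 4 of 13 were called lower, where 26.7% were lower and 0.348% higher. Their median was -0.15 (germline) and -0.52 (cyst), where that of all start sites was -0.11 and -0.30. With TMM scaling, which moved the median of all start sites by 0.13 and 0.31, the calls were 177 higher and 552 lower in germline in place of 38 and 1154, and 976 and 1571 in cyst in place of 65 and 4981; with the GC trend removed they were 201 and 412, and 615 and 1418.

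The calls centred on pum, whose 4 start sites rose in order from the 5′ end. At start site 1 the H3K9me3 IP signal was 0.461 and 0.503 over inputs of 1.33 and 0.922 in germline, and 0.659 and 0.648 over 2.32 and 2.51 in cyst. All 4 preparations were far below input, and the lowest germline value lay above both cyst values. The share of all start sites separated in this way was not counted. The log2 IP/input was -1.06 (SE 0.16, limma adjusted p = 6.10e-04) in germline and -1.74 (SE 0.16, adjusted p = 8.79e-07) in cyst. Start site 2, whose window overlaps that of start site 1 and shares fragments with it, was at -0.89 (adjusted p = 0.00831) and -1.42 (adjusted p = 1.60e-05). Start site 3 was at -0.15 in germline, not called, and at -0.93 in cyst (SE 0.17, adjusted p = 1.85e-04). The cyst calls at the 3 sites and the germline calls at sites 1 and 2 held with TMM scaling and with the GC trend removed, at values from -1.42 to -0.60. Without germline replicate 1, germline site 1 was at -0.76 and site 2 at -0.28, neither called; site 2 was also not called in germline without either cyst replicate, nor in cyst without cyst replicate 2 (-1.14).

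At start site 4, in the middle of the gene, the direction turned in germline. The IP signal was 1.70 and 2.18 over inputs of 1.26 and 1.14 in germline, and 1.43 and 1.42 over 1.55 and 1.81 in cyst. Both germline replicates were above input (0.40 and 0.88) and both cyst replicates below it (-0.11 and -0.33). The germline value of 0.64 (SE 0.16, limma adjusted p = 0.0120) was called higher and exceeded that of 99.9% of start sites; the cyst value was -0.22. The germline minus cyst difference was 0.86 (SE 0.22, 95% interval 0.40 to 1.31, adjusted p = 0.0379), the 1 member called of 13, where 3.26% of start sites were higher in germline and 0.0214% lower. The differences at sites 1 to 3 were 0.68, 0.53 and 0.78, all positive and not called. At site 1 the IP signal was lower in germline (0.461 and 0.503) than in cyst (0.659 and 0.648). The input there was lower too, at 1.33 and 0.922 against 2.32 and 2.51. At site 2 the IP signal overlapped, at 0.360 and 0.737 against 0.864 and 0.705, over inputs of 1.20 and 0.916 against 2.02 and 2.52. At site 3 it was 1.01 and 1.64 against 0.977 and 1.07, over 1.61 and 1.29 against 2.02 and 2.05. The part of the input in these differences was not tested. The median difference over the 13 was 0.41 against 0.17 over all start sites. The call at site 4 was lost with replicates as blocks (adjusted p = 0.0865), with TMM scaling (0.67, adjusted p = 0.0690, with 179 start sites higher and 24 lower in place of 609 and 4), with the GC trend removed (0.71, adjusted p = 0.0574), and without germline replicate 2 (0.62, adjusted p = 0.619), cyst replicate 1 (0.97, adjusted p = 0.258) or cyst replicate 2 (0.75, adjusted p = 0.378). The germline call was lost without either germline replicate (0.88, adjusted p = 0.0947, and 0.40, adjusted p = 0.197) and without cyst replicate 1 (adjusted p = 0.0535), as well as with a pseudocount of 0.5 (0.51), without the filter and with 250-bp windows (0.61).

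**Figure D3:**
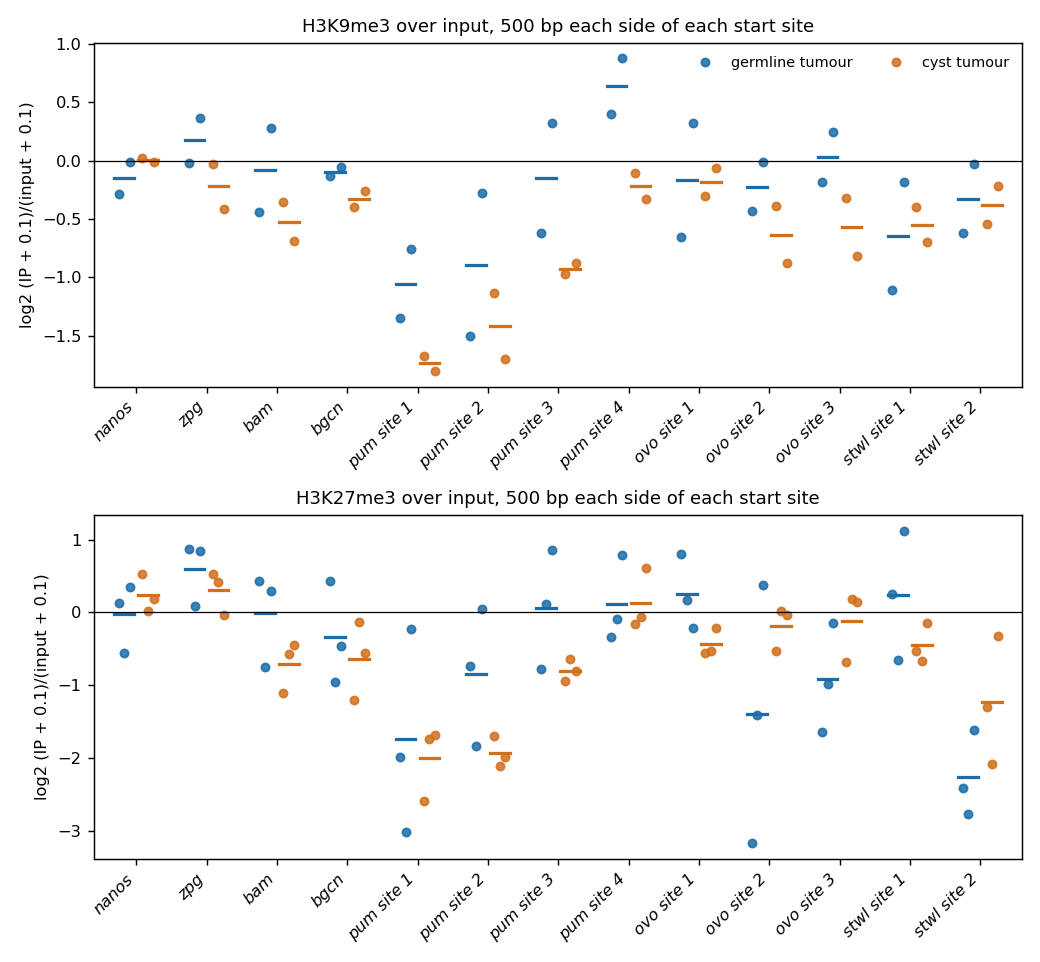
H3K9me3 (upper panel) and H3K27me3 (lower panel) IP over input (log2, vertical axes) at the 13 start sites, with 1 point per replicate (n = 2 for H3K9me3 and 3 for H3K27me3 per tumour type) and bars at the means. H3K9me3 rises from pum site 1 to pum site 4, where the germline points alone lie above 0, and the lowest H3K27me3 means are those of stwl site 2, pum site 1 and ovo site 2 in germline and of pum sites 1 and 2 in cyst.

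Along the pum body H3K9me3 was lowest at the 5′ end. The protein-coding gene CG11997, on the opposite strand, overlaps 1582 bp of this body, and its part in the values was not tested. In 34 bins of 5000 bp, the bin that starts at start site 1 was the lowest in both tumours, at -0.26 in germline and -0.74 in cyst. All replicates were above 0 in 28 of 34 germline bins and in 18 of 34 cyst bins, and all were below 0 in 2 germline and 12 cyst bins. The low cyst bins ran from the 5′ end without a gap to 30000 bp, at values rising from -0.74 to -0.04, and included those at 75000 to 80000 bp (-0.23) and 165000 to 170000 bp (-0.23). The other low germline bin was also that at 165000 to 170000 bp, at -0.22. The highest bin was at 120000 to 125000 bp in germline, at 0.39, and at 130000 to 135000 bp in cyst, at 0.33. Over the whole body germline stood at 0.17 and 0.20 and cyst at -0.03 and 0.04, without overlap. The share of all bodies without overlap was not counted. The difference of 0.18 (SE 0.11) did not pass the test (limma, adjusted p = 0.538). H3K4me3 and H3K27me3 were highest between 160000 and 165000 bp in both tumours, at 0.29 and 0.23 in germline and 0.42 and 0.43 in cyst, in a bin with 47.0% GC against a median of 39.6%.

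**Figure D4:**
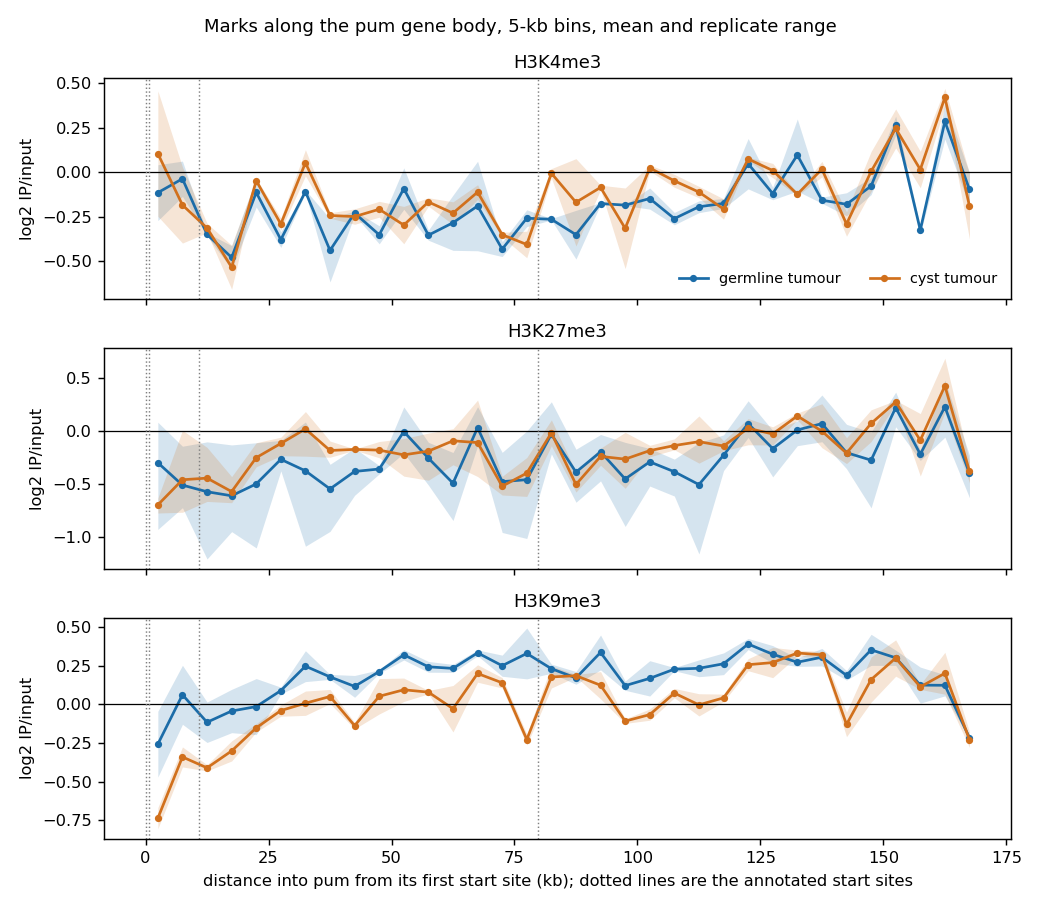
The 3 marks along pum in 5000-bp bins (log2 IP/input, vertical axes; distance from start site 1 in kb, horizontal axis), with lines at the means, bands over the range of replicates and dotted lines at the annotated start sites. H3K9me3 dips in the bin at the 5′ end, to -0.26 in germline and -0.74 in cyst, and the germline line lies above the cyst line over most of the gene.

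Among the other members, H3K9me3 at stwl start site 1 was -1.11 and -0.19 in germline and -0.40 and -0.70 in cyst. The germline value of -0.65 (SE 0.20) was called lower (limma, adjusted p = 0.0413), but not with replicates as blocks (adjusted p = 0.0565), without germline replicate 1 (-0.19), nor without either cyst replicate (adjusted p = 0.134 and 0.136), with TMM scaling (-0.53) or with the GC trend removed (-0.50). At ovo start site 2 the germline replicates were at -0.43 and -0.01 and the cyst replicates at -0.39 and -0.88, and the cyst value of -0.64 (SE 0.17, limma adjusted p = 0.00469) was called lower. It was not called with TMM scaling (-0.33), with the GC trend removed (-0.20) or without cyst replicate 2 (-0.39). nanos was closest to input, at -0.29, -0.01, 0.02 and -0.02, and zpg was at -0.02, 0.37, -0.03 and -0.41. bam was at -0.44 and 0.28 in germline and -0.36 and -0.69 in cyst, where the value of -0.52 passed the adjusted p (limma, 0.0176) but not the fold.

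No member body was called for H3K9me3, where 0.0657% of 13705 bodies were higher and 1.87% lower in germline, 0.387% and 4.15% in cyst, and 0% and 0% differed between tumour types. TMM scaling gave 32 higher and 61 lower in germline in place of 9 and 256, and 106 and 368 in cyst in place of 53 and 569; the GC correction gave 53 and 42, and 56 and 242. The body of bgcn separated the tumour types without overlap, at -0.27 and -0.28 in germline and 0.22 and 0.03 in cyst. Its difference of -0.40 (SE 0.10, unadjusted p = 0.00406 by limma) did not pass the adjustment (adjusted p = 0.285). With 2 replicates each, the share of all bodies without overlap was not counted.

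No start site or body of the 7 genes was called above input for H3K27me3. In germline 0 of 13 start sites were called (limma, 0% of 18617 higher and 0% lower, with 1093 and 2275 at an unadjusted p under 0.05), and in cyst 1 of 13 was lower, where 0.811% were lower and 0.0645% higher (12 higher and 151 lower, and with TMM scaling 43 and 59). With replicates as blocks, 17 start sites were higher and 310 lower in germline and 47 and 714 in cyst. The called site was pum start site 2, with IP signals of 0.676, 0.326 and 0.478 over inputs of 2.42, 1.73 and 2.18 in cyst. All 3 cyst replicates were far below input, at -1.70, -2.11 and -1.98, and the germline replicates were spread, at -0.73, -1.83 and 0.05. The cyst value was -1.93 (SE 0.37, limma adjusted p = 0.0397), and it was no longer called when any 1 cyst replicate was left out (-2.04, -1.84 and -1.90), without the filter or with 250-bp windows.

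Start site 1 of pum was as low, at -2.58, -1.73 and -1.68 in cyst and -1.99, -3.01 and -0.22 in germline. It did not pass the test in cyst (adjusted p = 0.0512) or germline (-1.74, adjusted p = 0.223). With each IP paired to the input of its own preparation it was called lower in both (limma with replicate blocks, adjusted p = 0.0270 in cyst and 0.0458 in germline). Germline replicate 3, which was sequenced on another flow cell than the other H3K27me3 libraries, was the highest of the germline values, and without it the germline value was -2.50 (adjusted p = 0.0265). Start site 2 of stwl was at -2.40, -2.76 and -1.61 in germline, from 0, 4 and 28 IP fragments, and was called lower with replicate blocks only (-2.26, adjusted p = 0.0161, against 0.223 without). With the GC trend removed, pum site 1 was at -0.56 and stwl site 2 at -0.50 in germline, and pum sites 1 and 2 were at -1.20 and -1.48 in cyst, the last of which was called (adjusted p = 0.0301).

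At ovo start site 2 the germline H3K27me3 replicates were at -3.16, -1.41 and 0.38, from 0, 10 and 110 IP fragments, and the mean of -1.40 did not pass the test (limma, adjusted p = 0.242). The cyst mean there was -0.19, and ovo start site 3 was at -0.92 in germline and -0.12 in cyst. At the differentiation genes bam and bgcn, H3K27me3 lay on both sides of input in germline and below it in all 3 cyst replicates, and neither gene was called. bam was at 0.43, -0.75 and 0.30 in germline and -1.11, -0.57 and -0.45 in cyst, with a germline estimate near 0 (95% interval -0.64 to 0.63) and a cyst estimate of -0.71 (limma, adjusted p = 0.189). The means of bgcn were -0.33 and -0.63, with cyst replicates at -1.21, -0.14 and -0.55. Those of zpg were 0.60 and 0.30 and those of nanos -0.02 and 0.25, none of them called. No start site differed between tumour types (limma, 0% higher and 0% lower, with 592 and 126 at an unadjusted p under 0.05). Of bodies, 0 of 7 members were called, where the share of 13622 called was 0.0514% higher and 0% lower in cyst and 0% otherwise; TMM scaling raised the cyst count from 7 and 0 to 228 and 36, and the GC correction gave 9 and 3.

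The input, which is the chromatin released by the nuclease before IP, also differed between tumours. Germline was below cyst at 3 of 13 start sites (limma with the mark of the experiment as a term, n = 7 per tumour type), where 30.4% of 18662 start sites were lower and 0.873% higher and the median start site was at -0.22. The 3 were pum start site 2, pum start site 3 and bam. At pum start site 2 the input ranged from 0.916 over a median of 1.40 to 1.63 in germline and from 1.66 over 2.18 to 2.67 in cyst. These ranges did not overlap, and the share of all start sites without overlap was not counted. The difference at pum start site 2 was -0.62 (limma, adjusted p = 0.00395). bam was at 0.881 ± 0.161 (SD, n = 7) in germline and 1.14 ± 0.196 in cyst (-0.33, limma adjusted p = 0.0397) and pum start site 3 at 1.40 ± 0.269 and 1.80 ± 0.291 (-0.34, limma adjusted p = 0.0422), and both overlapped. Relative to the median start site these are small shifts: with TMM scaling, which centred the median at 0.01, 972 start sites were higher and 975 lower in place of 163 and 5669, bam and pum site 3 were at -0.11 each and not called, and pum site 2 was at -0.39 (adjusted p = 0.0266). With the GC trend removed, 912 were higher and 2192 lower. In the flow cells that hold both tumour types 0 of the 13 were called, with pum site 2 at -0.69.

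The input at the nanos start moved the other way. Germline inputs averaged 1.18 ± 0.168 (SD, n = 7) and cyst inputs 0.994 ± 0.197, a difference of 0.24 above 97.4% of start sites that did not pass the test (limma, adjusted p = 0.119). With TMM scaling it was 0.47 and called higher (adjusted p = 0.0144), and with the GC trend removed it was 0.40 (adjusted p = 0.0122). One stretch with more germline input lay between 500 and 250 bp upstream, where the input was 1.09 ± 0.385 (SD, n = 7) in germline, from 0.481 to 1.70, and 0.395 ± 0.202 in cyst, from 0.145 to 0.705. Within each of the 3 experiments every germline input exceeded every cyst input: 1.13 and 1.16 against 0.556 and 0.458 for H3K4me3, 0.942, 0.481 and 0.885 against 0.145, 0.230 and 0.230 for H3K27me3, and 1.36 and 1.70 against 0.705 and 0.441 for H3K9me3. The segment was chosen after the values were seen, holds from 1 to 21 fragments in a cyst library, and was not tested. In the neighbouring segments the means were closer, at 1.76 and 1.56 in the 250 bp before the start, though not in its last 100 bp (0.855 and 0.399), 0.952 and 1.03 in the 500 bp after it, and 1.10 and 1.28 in the rest of the gene. The nanos driver, present in the germline tumours alone, carries nanos sequence, and its part in the input here was not tested. Over bodies 0 of 7 members differed in input, where 20.2% of 13690 were lower and 1.67% higher (2771 and 228; with TMM scaling 894 and 819, and with the GC trend removed 2065 and 772).

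**Figure D5:**
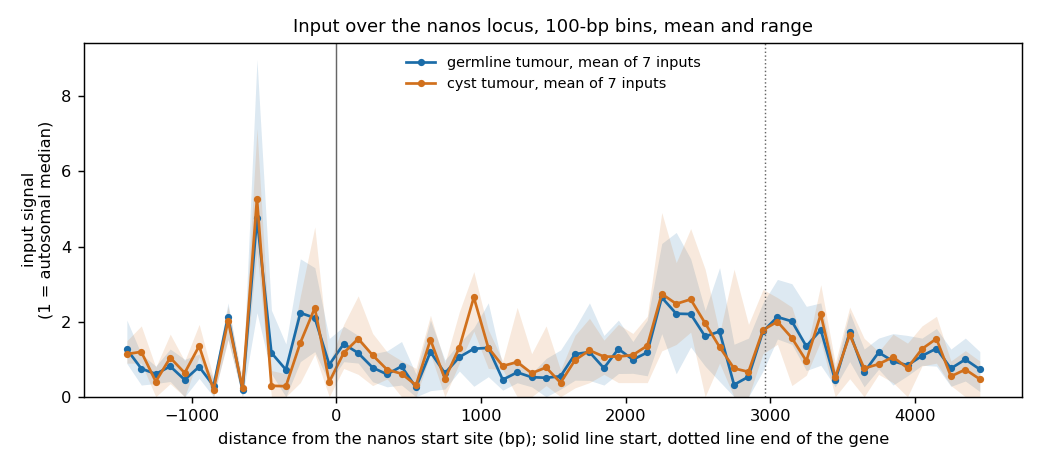
Input signal over the nanos locus in 100-bp bins (vertical axis; 1 is the autosomal median) against distance from the start site, with lines at the means of 7 inputs per tumour type and bands over their range. The germline line lies above the cyst line between 500 and 250 bp upstream and in the last 100 bp before the start (0.855 against 0.399), and below it in other bins, such as that from 900 to 1000 bp downstream (1.28 against 2.65).

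Genes that work with the members were read from 6 lists, some of which share genes, such as Sxl, scny and mei-P26. Start site values of a listed gene are those of its most upstream annotated start site, and its other start sites were not read. Start sites of other genes in the same windows were not looked up, so a value may not belong to the listed gene alone. For H3K4me3 at start sites, 4 of 13 translational control partners of Nanos and Pumilio were called higher in germline and 4 in cyst, the same genes: brat (1.11 and 0.88), a translational repressor, Pop2 (0.82 and 1.04) and Not1 (0.79 and 0.78) of the deadenylase complex, and mei-P26 (0.59 and 1.08). Of 12 genes of bam repression and BMP signalling, 4 were higher and 1 lower in germline and 5 were higher in cyst. They included the receptor put (1.07 and 1.12) and the Smads Mad (0.73 and 0.97) and Med (0.70 and 1.15); shn, the corepressor of bam, was lower in germline (-0.71). Of 11 partners and targets of Bam and Bgcn, 2 were higher in germline and 5 in cyst, CSN4 (0.73 and 0.88) and mei-P26 in both. The shares over all start sites were 19.2% higher and 4.23% lower in germline, and 25.7% higher and 3.37% lower in cyst.

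Of the 7 other innexin genes, 0 were called in germline and 3 higher in cyst, Inx2 (1.32), Inx5 (0.74) and Inx7 (0.73). Inx2 is the innexin of the somatic side of the channels that Zpg forms. Of 9 germline regulators linked to ovo, 1 was higher in germline and 2 in cyst, with snf (1.23 and 0.97) in both, and vas, the germline helicase gene, was lower in both (-1.01 and -0.83). Of 12 chromatin regulators of stem cells, 4 were higher and 1 lower in germline and 6 higher and 2 lower in cyst, with the H3K9 methyltransferase genes Su(var)3-9 (1.99 and 1.67) and egg (1.04 and 1.37) among the former and Set1 (-0.77 and -0.86) lower in both. Beside these counts, 19.2% of all start sites were higher and 4.23% lower in germline, and 25.7% and 3.37% in cyst. No gene of the 6 lists differed in H3K4me3 between tumours, or in H3K27me3, where 0% of all start sites and bodies did.

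H3K9me3 at start sites was lower than input in germline and cyst at 4 and 9 of the 13 translational partners, 6 and 9 of the 12 BMP genes, 4 and 7 of the 11 Bam partners, 2 and 5 of the 9 genes linked to ovo, 4 and 9 of the 12 chromatin regulators and 0 and 0 of the 7 innexins, where the shares over all start sites were 6.18% and 26.7%. The germline minus cyst difference was called higher at 2 of the 13 translational partners, orb (0.92) and Not1 (0.81), at 2 of the 12 BMP genes, Dad (0.93) and put (0.77), and at 1 of the 12 chromatin regulators, wde (0.83), where 3.26% of all start sites were higher and 0.0214% lower. Over all start sites such higher calls fell from 609 to 179 with TMM scaling. The calls below input over all start sites also fell with TMM scaling, as given above. The list counts were not recounted with any alternative, and a gene in more than 1 list is counted in each. For H3K27me3, Smurf, a ubiquitin ligase of BMP signalling, was lower than input in cyst (-1.57) at its start site, and no other listed start site was called.

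The gene whose 14 replicate values lay closest to those of each member (H3K4me3 at the start, H3K27me3 and H3K9me3 over the body) was Acsl for nanos, Pif1 for zpg, GILT1 for bam, CG13436 for bgcn, RhoU for pum, fog for ovo and Rab3-GEF for stwl. Their mean absolute distance was from 0.0831 (ovo and fog) to 0.158 on the log2 scale, where the median gene was 0.416 to 0.449 away. The nearest gene is the smallest of 13580 to 13582 distances, so it lies below the median whatever the values. The nearest distance of other genes was not computed.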

How the data were processed

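ChIC-seq signal was read from 1 table of 28 libraries, deposited as signal per 40-bp window, with windows starting every 20 bp, per the file headers. The submitters' processing notes name Bowtie2 2.4.5 and the build dm6; read filters were not given in the sources used here. All 7 chromosome ends in the table equal those of Release 6. The deposited signal values were whole multiples of 1 step per library (100% within 0.01), and the step matched division by the autosomal median of 1000-bp bins, which removes depth and any genome-wide difference in a mark. The overlapping windows were resolved into fragments of each 20-bp bin, with 0 negative bins.

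Signal was averaged within 500 bp of each annotated start site of protein-coding genes (Ensembl release 115, sites within 100 bp merged) and over gene bodies. Features averaging at least 10 fragments a library were tested with limma 3.58.1 (R 4.3.3, mean-variance trend) on log2(signal + 0.1), a scale that understates changes at low values. The 4 groups of a mark shared 1 fit, without pairing. IP over input was called at an adjusted p (Benjamini-Hochberg over all features) under 0.05 and a fold over 1.5, and germline minus cyst at an adjusted p under 0.05. Inputs were compared with the mark of the experiment as a term. The models were tested on simulated data. Alternatives were a pseudocount of 0.5, no filter, a minimum of 30 fragments, TMM scaling, edgeR 4.0.16 on recovered fragments, removal of a GC trend, 250-bp windows (bodies without their first 500 bp), replicate blocks, each replicate left out, and, for input, the flow cells with both tumour types and the X centred on its own median.

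Per the labels' protocols, the input and the IP that carry 1 number were split from 1 preparation of soluble chromatin, so the numbers pair them. The correlation of their deviations across start sites was 0.04 and 0.00 for H3K4me3 in germline and cyst, -0.24 and 0.05 for H3K9me3, and -0.10 to 0.36 for H3K27me3. Between tumour types a number pairs nothing.

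The members, the gene lists and the named genes (all members whatever their values, listed genes past a threshold, up to 5 per list, mark and contrast, and the nearest gene by mean absolute difference) were chosen with earlier results of these data known. The upstream and downstream sides and the nanos segment were chosen after their values were seen.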

Additional observations from a re-analysis of the deposited data

Results flagged for a closer look

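Of 40 sets of 7 input values (20 features in 2 tumour types), 2 held a value far from the others, both in the germline input of H3K27me3 replicate 2 and both at ovo: 0.622 over the ovo body and 1.19 at ovo start site 2. Chance gives about 1 such set in 20. Among the 3 marks, 1 member difference between tumour types passed its test, H3K9me3 at pum start site 4, at 0.86 on the log2 scale (limma, adjusted p = 0.0379), with both germline replicates above input and both cyst replicates below it. With replicate blocks it did not pass (adjusted p = 0.0865).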

How the results depend on the processing

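Counts of members called, in the order given in each clause, moved as follows. H3K4me3 at start sites had 2 in germline and 3 in cyst: in germline 1 with a pseudocount of 0.5, 0 without the filter, 0 with the GC trend removed and 1 with 250-bp windows, and in cyst 5 with TMM scaling and 1 with 250-bp windows. H3K4me3 over bodies had 0 and 1: 1 in germline with edgeR, and in cyst 0 with the pseudocount, TMM scaling and the GC trend removed, where bgcn reversed to -0.072. H3K27me3 at start sites had 0 and 1: 2 and 2 with replicate blocks, and in cyst 2 with the pseudocount, 2 with edgeR, 0 without the filter and 0 with 250-bp windows. H3K9me3 at start sites had 4, 4 and a difference at 1: 2 in germline with the pseudocount, 1 without the filter, 7 in cyst with edgeR, and for the difference 3 with the pseudocount and 0 without the filter, with TMM scaling, the GC trend removed or replicate blocks. Input at start sites had 3: 6 with edgeR, 1 with 250-bp windows, 1 with replicate blocks and 0 in flow cells with both tumour types. Input over bodies had 0: 2 with edgeR and 1 with the variance trend on fragments, an alternative chosen after seeing the data. With 1 replicate left out the counts ranged from 0 to 3 and 1 to 3 for H3K4me3 at start sites, 0 to 1 for cyst bodies, 0 to 1 and 0 to 2 for H3K27me3, 0 to 4, 2 to 5 and 0 to 5 for H3K9me3, and 1 to 5 and 0 to 1 for input at start sites and over bodies. Where a group kept 1 library, it is assumed to vary like the others. The cause of these changes was not tested. Over single members, 2814 alternative values kept direction and call, 44 gained a call, 89 lost one and 1 reversed. Replicate blocks changed no call other than those above and in the text. Low fragment counts limit H3K27me3 at start sites most.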
